A study of Nematostella vectensis with 18 samples.

Results

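The transcripts that mark minicollagen reporter cells were described in tentacles of the sea anemone Nematostella vectensis by comparing 4 Ncol3-positive with 4 Ncol3-negative RNA-seq libraries, 8 of the 18 libraries of the series. Both populations came from untreated polyps of the Ncol3::mOrange reporter line, kept at 18 °C in 16 permil salt water, so the negative cells carry the transgene too. Tentacles were dissociated with enzymes, and cells were sorted by reporter fluorescence before poly(A) RNA was sequenced. The members were taken from the library titles, and every gene row of the count table (24537 gene IDs of the form NV2 and a number) was considered; the row of the reporter transcript, mOrange2, was kept out of all gene lists. The other 10 libraries are 5 Nep3-positive and 5 Nep3-negative samples of the Nep3::mOrange line and serve here to set the Ncol3 values beside.

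Cnidocytes are the stinging cells of cnidarians. Each builds a pressurised capsule inside a large secretory vesicle, and the capsule wall is made largely of minicollagens, short collagens that are cross-linked through cysteine-rich ends. Because a capsule is fired and not reused, cnidocytes are replaced continuously in tentacles. Ncol3 encodes a capsule minicollagen, and Nep3 encodes a protein of the nematocyst content.

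The 8 libraries held between 5463324 and 13624512 counts. Their labels all give the same batch. By chi-square between their counts, positive replicates 1 and 2 stood apart from positive replicates 3 and 4. Divided by its degrees of freedom, chi-square between the counts of libraries was 7.29 within the first pair and 8.08 within the second, and between 65.7 and 91.5 across the pairs. It lay between 16.7 and 49.8 among the negative libraries, and no pair was close enough to be counted as the same library. The correlation of log2 CPM (CPM as defined below) separated the positive pairs less clearly. It was 0.970 within the first pair, 0.949 within the second and 0.936 to 0.948 across them. The labels do not say whether replicates came from separate animals or sorts, so p-values measure the spread between libraries. In edgeR fits this spread is taken over all 18 libraries unless fewer are named, and in permutation tests over the 8. For this reason values within each pair stand beside the reporter, the named genes and the main counts. None of the gene IDs (0) matched the reference table used, so genes are given by ID, and the labelled cell type could be checked only through the reporter.

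mOrange2, the transcript on which the sort rests, was at 248, 215, 380.2 and 353 CPM in Ncol3-negative replicates 1 to 4 and at 674, 774, 1106 and 1204 CPM in the positive replicates. CPM is the count relative to library size, in counts per 1e+06, after TMM scaling, which sets libraries so that most genes do not differ. Every positive library was above every negative one, and the lowest positive value was less than 2-fold above the highest negative value. The difference between positive replicates arose with the scaling. Relative to library size alone, mOrange2 lay between 646 and 696 counts per 1e+06 in positive and between 277 and 449 in negative libraries. On the log2 scale the fold change of mOrange2 with TMM scaling was 1.65 (SE 0.47; quasi-likelihood test of edgeR, Benjamini-Hochberg adjusted p = 0.0129). A change larger than 2-fold was not established for it (edgeR test against a 2-fold change, adjusted p = 0.229). With library size only it was 0.92 (SE 0.38; edgeR adjusted p = 0.0478). Within replicates 1 and 2 and within replicates 3 and 4 it was 1.66 and 1.65, which missed the threshold in both cases (edgeR adjusted p = 0.148 and 0.111). Among genes called higher, 1059 of 2798 (37.8%) had a larger log2 fold change than the reporter, against 1122 (5.91%) of all 18975 genes tested. The called genes were chosen on these same fold changes, so the larger share among them is largely fixed in advance and is a description.

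**Figure D1:**
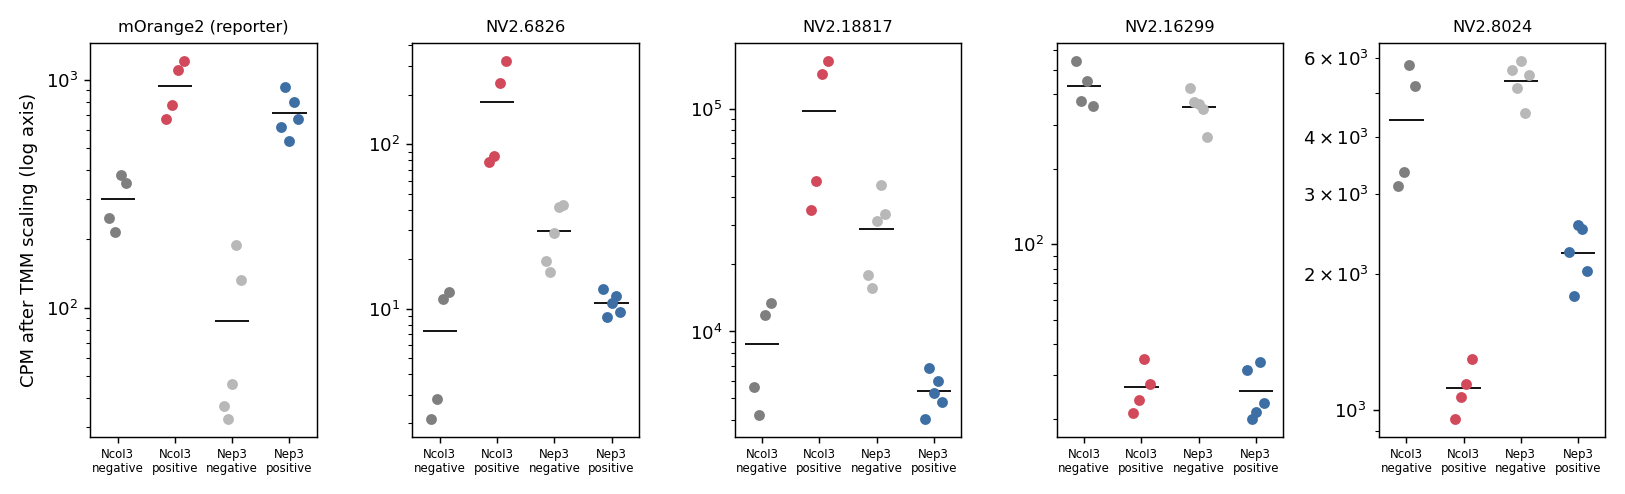
Level of the reporter mOrange2 and of 4 genes in each of the 18 libraries, as CPM after TMM scaling on log axes that differ between panels. Points are libraries and horizontal lines are group means (4 libraries per Ncol3 group, 5 per Nep3 group). Ncol3-positive libraries lie above Ncol3-negative ones for NV2.6826 and NV2.18817, while Nep3-positive libraries lie below Nep3-negative ones.

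Cells sorted by the Ncol3 reporter differed from their negative counterparts in many genes, in both directions. Of 18975 genes, 5274 (27.8%) had an adjusted p under 0.05. Higher levels in positive cells were called for 2798 genes (14.7%) and lower levels for 2476 (13.0%). Their median log2 fold changes were 1.29 and −1.24, against −0.05 over all genes tested. In these bulk samples, fewer cells of a type and less RNA per cell cannot be told apart.

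A stricter test asked which changes were larger than 2-fold (edgeR, null of at most 2-fold, Benjamini-Hochberg adjusted). It called 1566 genes (8.25%), 912 higher (4.81%) and 654 lower (3.45%) in Ncol3-positive cells. Their calls under other settings were counted with the ordinary test against no change. In that test all 912 and all 654 had an adjusted p under 0.05 in the same direction with DESeq2 size factors, with library size only and with TMM factors computed without the 20 highest genes. With each of the 18 libraries left out in turn, 911 of the higher and 649 of the lower genes kept such a call in every fit. The stricter test itself called 1268 to 1696 genes in those fits.

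The larger lists depended on scaling. With library size only, 10584 genes were called, 1212 higher and 9372 lower, so that 11.5% of the calls were higher against 53.1% with TMM. Over all genes, the log2 fold change then had a median of −0.72. All 2476 genes called lower kept their call, and 1212 of the 2798 genes called higher (43.3%) kept theirs. None (0) of the 2798 was called lower. The mean share of a library's counts was smaller in positive than in negative libraries for 546 of the 2798 genes called higher. Directions of small changes are for this reason relative to the TMM scaling.

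**Figure D2:**
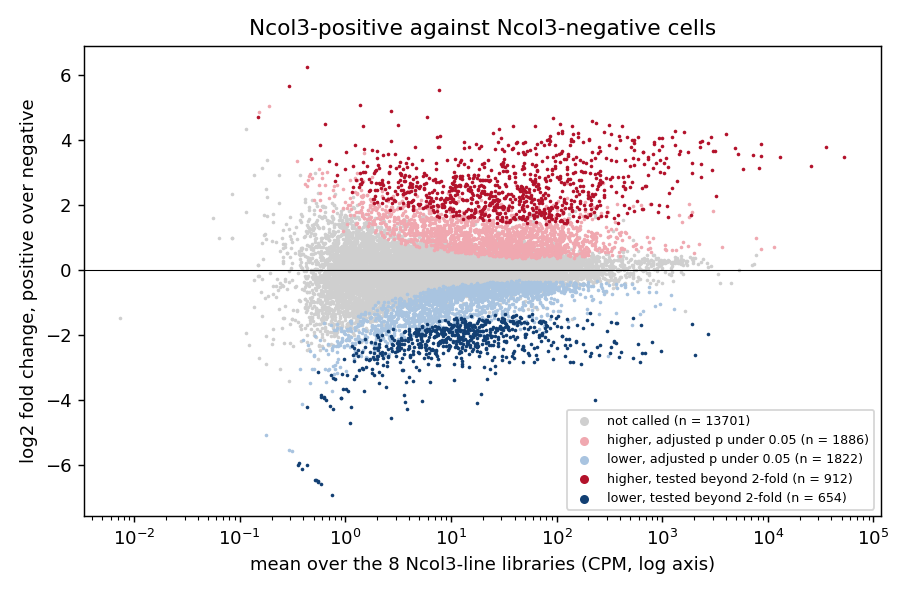
Log2 fold change of Ncol3-positive over Ncol3-negative cells against the mean CPM over the 8 libraries (log axis), with 1 point per gene. Dark points are the 912 genes higher and 654 genes lower beyond 2-fold, and pale points are the other genes with an adjusted p under 0.05. Calls at high CPM are mostly upwards, which is partly fixed because the mean on the axis includes the positive libraries.

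The calls were not spread evenly over abundance. CPM is not divided by gene length here, so a class of CPM reflects the reads behind a gene and not only its transcript number. The mean over the 8 libraries includes the positive ones, so a gene much higher there enters a higher class by the values that call it. A tilt of the high classes towards higher calls is thus partly fixed in advance, and the counts are a description. Among the 135 genes with a mean of 1000 CPM or more over the 8 libraries, 63 were called higher (46.7%) and 5 lower (3.70%). Among the 1420 genes from 100 to 1000 CPM, 491 were higher and 158 lower. The balance turned at lower counts. Of 7684 genes from 1 to 10 CPM, 675 were higher (8.78%) and 985 lower (12.8%). The share of genes with any call, higher or lower, was smallest below 1 CPM, at 9.99%. Lower calls alone did not follow this order, with 6.87% of genes below 1 CPM and 3.70% at 1000 CPM or more.

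Few of the differences were between presence and absence. Of the genes called higher, 2720 (97.2%) had at least 1 count in every negative library, and 5 had no count in any of them. Of those called lower, 2276 (91.9%) were counted in every positive library, and 13 in none. All genes tested had passed a filter on low counts. The same shares over all of them are not given here, so these counts are a description and not a trait of the called genes. Only 4 genes called higher were at 10 CPM or more in positive libraries and under 1 CPM in negative libraries, and there was no gene (0) of the reverse kind. Negative libraries also held mOrange2 at 31.8% of the positive level after TMM scaling and at 53.0% relative to library size alone, and the part of reporter-expressing cells in these values was not tested. Complete separation of the 4 positive from the 4 negative libraries was found for 2703 genes on the higher side (14.2% of those tested) and 2627 on the lower side (13.8%). Among the genes called beyond 2-fold, 901 of 912 and 652 of 654 were separated in this way.

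Counts were concentrated in fewer genes in Ncol3-positive cells. The highest genes that together held 50% of a library's counts numbered 341, 282, 108 and 95 in positive replicates 1 to 4, against 605, 694, 630 and 558 in the negative replicates. All 4 positive libraries were below all negative ones, and replicates 3 and 4 were below replicates 1 and 2. The means were 206.5 ± 124 and 622 ± 56.7 genes (SD, n = 4 each), a difference of −415 genes. An exact permutation test (two-sided) gave p = 0.0286, which no split of 4 against 4 libraries can go below. Adjusted over the 3 quantities tested in this way, p was 0.0429 in this permutation test, 0.0429 for the mOrange2 level and 0.714 for the total count.

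**Figure D3:**
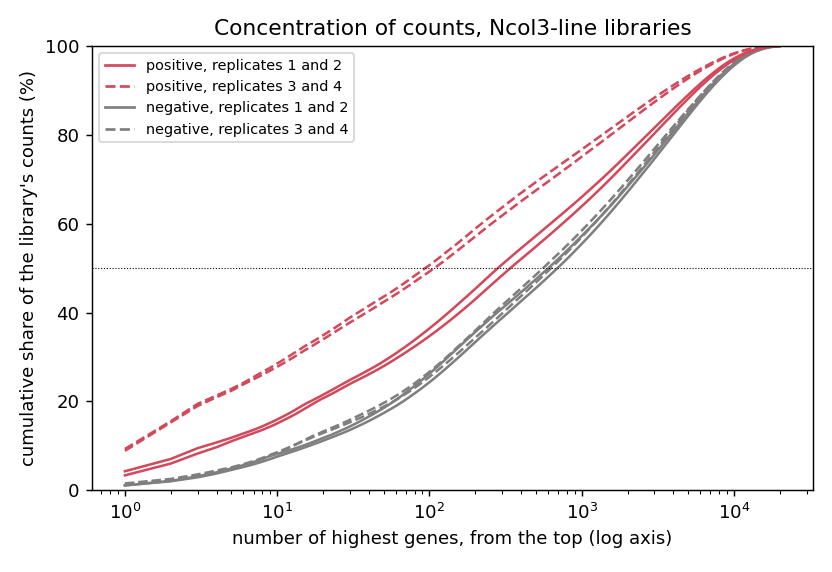
Cumulative share of a library's counts (%) held by its highest genes, taken from the top (log axis), for the 8 Ncol3-line libraries. The dotted line marks 50%, which positive replicates 3 and 4 reach with 108 and 95 genes and the negative libraries with 558 to 694.

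The highest-count genes were largely those called higher. All 10 of the 10 genes with the highest mean share in positive libraries were called higher; together they held 21.6% of the counts there and 4.97% in negative libraries. Of the 100 highest genes of positive libraries, 64 were called higher and none (0) lower, and 57 were also among the 100 highest of negative libraries. Of the 100 highest genes of negative libraries, 22 were called higher and 13 lower. These lists were ranked on the same libraries, so the calls describe them and support nothing further. The 2798 genes called higher gained 33.6 percentage points of the counts on average, and 53.0% of that gain came from 10 genes and 84.5% from 100 genes. The loss among genes called lower was more diffuse: the 2476 genes fell by 11.4 percentage points, of which 10 genes made up 18.1% and 100 genes 49.4%. These genes did not hold the whole loss. All rows without a call, which include genes not tested and mOrange2, held a mean of 63.1% of the counts in negative and 40.9% in positive libraries.

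The 912 genes higher beyond 2-fold held 4.80%, 4.90%, 9.49% and 11.1% of the counts in negative replicates 1 to 4 and 28.8%, 29.2%, 48.7% and 50.4% in the positive replicates. Replicates 3 and 4 were higher than replicates 1 and 2 in both populations. The 654 genes lower beyond 2-fold held 5.73% to 6.66% of the counts in negative libraries and 0.703% to 1.12% in positive libraries. In the Nep3 line, whose libraries did not enter the choice of these genes except through the shared scaling and spread of the model, the 912 genes held 17.3% ± 4.02 of the counts without the reporter signal and 14.2% ± 1.60 with it (SD over 5 libraries each). Those ranges, 13.9% to 24.1% and 12.7% to 16.8%, overlapped. For the 654 genes the Nep3 values were 5.39% ± 0.860 in negative and 1.69% ± 0.233 in positive libraries, with no overlap. These shares are descriptions and were not tested.

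**Figure D4:**
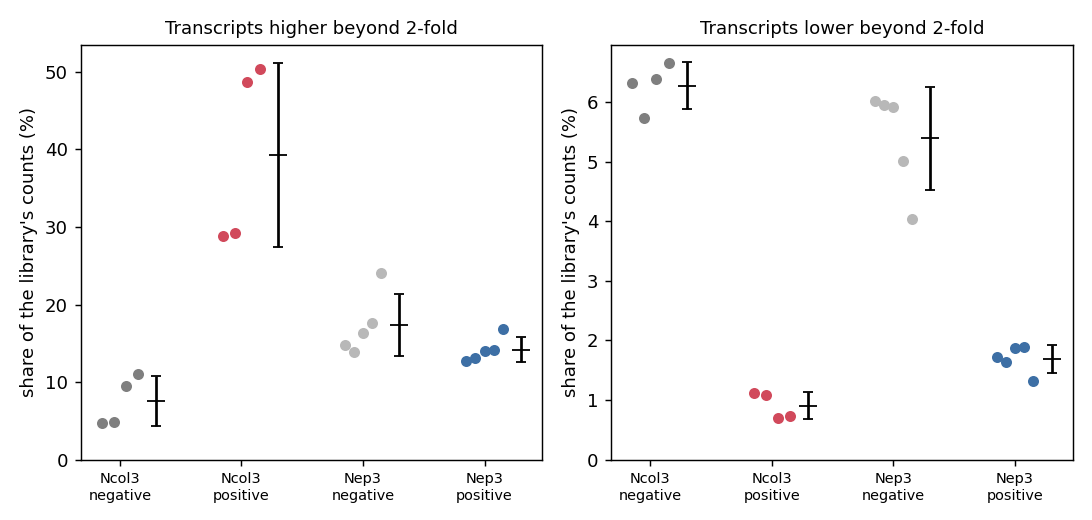
Share of each library's counts (%) held by the 912 genes higher and the 654 genes lower beyond 2-fold in Ncol3-positive cells, with 1 point per library. The bars beside the points are the mean ± SD over 4 libraries (Ncol3) or 5 libraries (Nep3). The higher set separates the Ncol3 populations but overlaps between the Nep3 populations, while the lower set is smaller in the positive libraries of both lines.

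NV2.6826 had the highest log2 fold change after subtraction of 2 standard errors among the 1824 higher genes that met the naming rule. Its level was 2.14, 2.80, 11.5 and 12.7 CPM in negative replicates 1 to 4 and 77.9, 84.6, 236 and 320.1 CPM in the positive replicates. The populations did not overlap, which the naming rule requires, and replicates 3 and 4 were higher on both sides of the sort. The log2 fold change was 4.66 (SE 0.63; edgeR adjusted p = 3.29e-05), and it was 5.08 within replicates 1 and 2, 4.53 within replicates 3 and 4 and 3.82 with library size only. In the Nep3 line the order was turned round, with 16.7 to 42.7 CPM in negative and 8.91 to 13.1 CPM in positive libraries (log2 fold change −1.46, SE 0.50, edgeR adjusted p = 0.0297). The difference between the lines, Nep3 minus Ncol3, was −6.12 (SE 0.79; edgeR interaction test, adjusted p = 2.87e-05). This difference contains the Ncol3 change on which the gene was chosen, as it does for the other named genes.

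NV2.18817 had the largest difference in mean CPM and ranked first by CPM in both Ncol3 populations. It was at 5622, 4229, 11850.3 and 13417 CPM in negative replicates 1 to 4. In positive replicates 1 to 4 it was at 34960.5, 47587, 143351 and 163750 CPM. As for NV2.6826, all positive libraries lay above all negative ones and replicates 3 and 4 were the highest in each population. The log2 fold change was 3.47 (SE 0.50; edgeR adjusted p = 2.43e-05), with 3.08 within replicates 1 and 2, 3.60 within replicates 3 and 4 and 2.63 with library size only. In Nep3-positive libraries it lay between 4054 and 6859.7 CPM, against 15627.5 to 45424 CPM in Nep3-negative libraries (log2 fold change −2.41, SE 0.43, edgeR adjusted p = 0.000139). The lines differed by −5.88 (SE 0.66; edgeR interaction test, adjusted p = 1.77e-06).

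NV2.16299 ranked first by the same measure, on the absolute log2 fold change, among the 1223 lower genes that met the naming rule. It was at 541, 376, 451 and 357 CPM in Ncol3-negative replicates 1 to 4 and at 21.1, 23.8, 34.6 and 27.6 CPM in the positive replicates. The groups were far apart, and after TMM scaling positive replicates 3 and 4 were above positive replicates 1 and 2. As a share of counts this order was absent, at 0.00202%, 0.00214%, 0.00214% and 0.00157% in positive replicates 1 to 4. The log2 fold change was −4.01 (SE 0.22; edgeR adjusted p = 3.83e-11), with −4.34 within replicates 1 and 2, −3.70 within replicates 3 and 4 and −4.73 with library size only. Its Nep3 levels were close to those of the Ncol3 line, 269 to 423 CPM in negative and 20.04 to 33.7 CPM in positive libraries (log2 fold change −3.77, SE 0.19). A difference between the lines was not established at 0.24 (SE 0.26; edgeR interaction test, adjusted p = 0.571).

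NV2.8024 had the largest loss in mean CPM. Its level was 3119, 3349, 5792 and 5193 CPM in Ncol3-negative replicates 1 to 4, and 956, 1065, 1142 and 1298 CPM in the positive replicates. After TMM scaling, replicates 3 and 4 were above replicates 1 and 2 in each population, and the groups did not overlap. As a share of counts the order within the positive libraries was reversed, at 0.0917%, 0.0958%, 0.0707% and 0.0736% in replicates 1 to 4. The log2 fold change was −1.97 (SE 0.21; edgeR adjusted p = 1.90e-07), with −1.66 within replicates 1 and 2, −2.17 within replicates 3 and 4 and −2.66 with library size only. In the Nep3 line it lay between 4533 and 5891 CPM in negative and between 1784 and 2561 CPM in positive libraries (log2 fold change −1.26, SE 0.18). The difference between the lines was 0.70 (SE 0.27; edgeR interaction test, adjusted p = 0.0663), which did not pass the threshold and did so in 7 of 26 alternatives.

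The genes called in the Ncol3 line were then grouped by the size of their change and set beside the Nep3 comparison, which shares no library with it. With all 18 libraries and TMM, genes higher by 8-fold or more in Ncol3-positive cells were mostly lower in Nep3-positive cells, and those higher by less were not. Over all genes tested, 18.6% were called higher and 19.2% lower in Nep3-positive against Nep3-negative cells (37.8% together). Of 1010 genes higher by less than 2-fold in Ncol3-positive cells, 29.7% were higher and 22.7% lower in the Nep3 line. From 4-fold to 8-fold, 243 of 514 genes (47.3%) were higher and 175 (34.05%) lower. At 8-fold or more the order was reversed, with 37 of 256 genes higher (14.5%) and 163 lower (63.7%). At 16-fold or more, 35 of 49 genes (71.4%) were lower. The share called lower among the 256 genes depended on the fit: it was 49.5% of the larger set obtained without a filter on low counts and 77.6% of the smaller set obtained with library size only. With the Ncol3 line reduced to replicates 1 and 2 it was 67.9%, and with replicates 3 and 4 it was 54.1%. Leaving out 1 library at a time gave 49.6% to 65.9%. The lowest of these came without Nep3-negative replicate 5, with 125 of 252 genes called lower and 34 higher in the Nep3 line.

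These 256 genes fell into unlike classes of abundance. The 163 that were lower in Nep3-positive cells had a median of 324 CPM in Ncol3-positive and 24.0 CPM in Ncol3-negative libraries, and 51 of them were over 1000 CPM in Ncol3-positive libraries. Together they held 30.9% ± 11.3 of all counts in Ncol3-positive libraries (SD, n = 4), from 20.8% to 41.4%, and 4.68% ± 2.71 in the Ncol3-negative group (n = 4). Their share in the Nep3 line was 13.1% ± 3.55 in negative and 3.17% ± 0.305 in positive cells (n = 5 each). The 37 genes that were higher in both lines had a median of 4.19 CPM in Ncol3-positive and 0.394 CPM in Ncol3-negative libraries. They held 0.0444% ± 0.00295 of the counts in Ncol3-positive and 0.108% ± 0.0249 in Nep3-positive libraries (SD, n = 4 and 5). For the remaining 56 genes no call was made in the Nep3 line. The class higher in both lines lay at low counts and depended on the filter. In a fit limited to genes with a mean of at least 5 CPM, 201 genes were higher by 8-fold or more. Of these, 15 were higher and 155 lower in the Nep3 line.

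**Figure D5:**
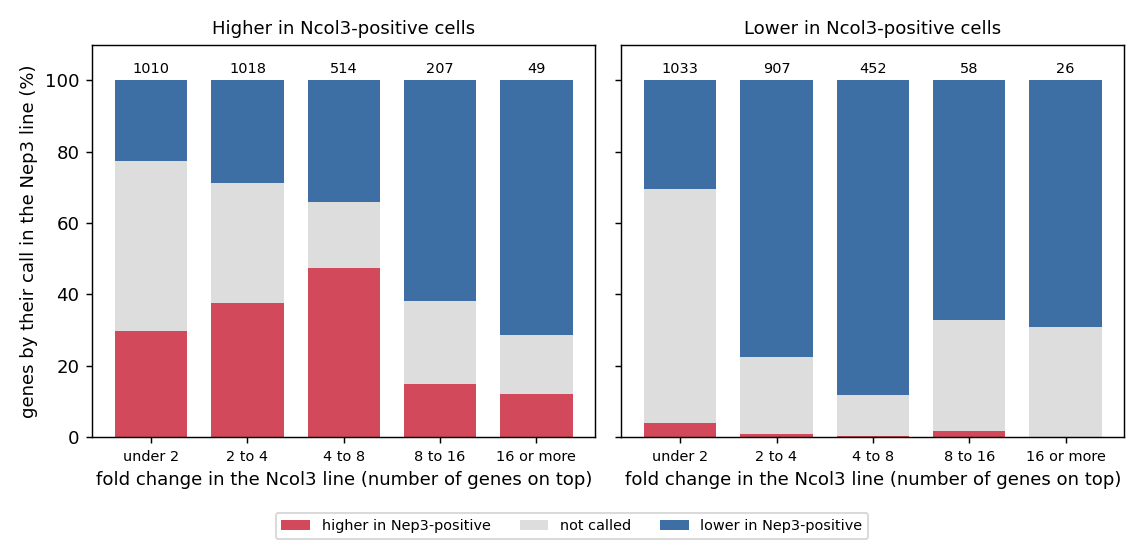
Share of genes (%) called higher, called lower or not called between Nep3-positive and Nep3-negative cells, for genes called in the Ncol3 line and grouped by their fold change there; the number of genes stands on each bar. Among genes higher in Ncol3-positive cells, the share lower in the Nep3 line is 34.05% from 4-fold to 8-fold and 61.8% from 8-fold to 16-fold.

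Transcripts lower in Ncol3-positive cells mostly moved the same way in the Nep3 line. Of the 1443 genes lower by 2-fold or more, 1158 (80.2%) were lower, 11 (0.762%) were higher and 274 were not called in Nep3-positive cells. Of the 654 genes tested beyond 2-fold, 610 (93.3%) were lower and 1 was higher, with a median Nep3 log2 fold change of −1.84. The corresponding 912 higher genes had 309 higher (33.9%) and 430 lower (47.1%), with a median of −0.62. With library size only, the share lower in the Nep3 line among genes lower by 2-fold or more was 32.6%, in a list that scaling had lengthened. It was 88.5% with Ncol3 replicates 1 and 2 alone and 66.2% with replicates 3 and 4 alone.

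Within replicates 1 and 2, 2856 genes were called, and 4316 within replicates 3 and 4. Differences were larger in replicates 3 and 4, where the median log2 fold change of the genes called higher in the full comparison was 1.42 against 1.14 in replicates 1 and 2. For genes called lower the medians were −1.34 and −1.09. The sign differed between the pairs of replicates for 2 of 2797 genes called higher and for none (0) of the 2476 called lower, on the same libraries that chose them. Of 18929 genes tested in each pair, 2238 (11.8%) were called in both pairs in the same direction. The number was 850 among the 912 and 590 among the 654 genes beyond 2-fold, which is largely fixed by their choice on the same libraries and is given as a description. The spread between libraries beyond counting error, as a coefficient of variation estimated over all genes, was 28.9% over the 4 positive libraries, but 13.1% within positive replicates 1 and 2 and 20.9% within positive replicates 3 and 4. In the negative group the values were 26.1%, 20.4% and 25.7%.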

How the data were processed

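The authors deposited 1 table of raw counts per gene, with a column for each of 18 libraries; the values are whole numbers whose totals differ, which gave the unit. Trimmomatic, STAR 2.7.10a and featureCounts 2.0.1 are named, without settings, per the submitters' processing notes. The genome build, annotation and strand setting are not given in the sources used here, so paralogs and overlapping genes are uncertain.

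Groups and replicate numbers came from the titles. Genes were filtered with filterByExpr, and those left out held at most 0.176% of a library's counts. All 18 libraries entered a quasi-likelihood model of edgeR 4.0.16 (R 4.3.3) with 4 group means and TMM factors, Benjamini-Hochberg adjustment over all genes and a threshold of 0.05. Changes beyond 2-fold were tested with glmTreat on that fit. Alternatives used DESeq2 1.42.0 and limma 3.58.1. All tests were two-sided, and single quantities were compared with exact permutation tests. The 8 libraries, the lists and the tests were chosen with earlier results of these data known.

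Named genes met an adjusted p under 0.05, averaged 10 CPM or more and had no overlap between the 4 positive and 4 negative libraries. In each direction, the gene with the largest log2 fold change less 2 standard errors and the gene with the largest difference in mean CPM were taken.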

Additional observations from a re-analysis of the deposited data

Results flagged for a closer look

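Of 36 groups of 4 or 5 libraries that were checked for a library far from the others, 1 stood out, where chance gives about 1 in 20. It was the share of counts held by the 2798 genes called higher in Ncol3-positive cells, measured in Nep3-negative libraries. Nep3-negative replicate 5 was at 38.3% and the other Nep3-negative libraries lay between 28.0% and 30.0%, so that its gap to the nearest library was 0.799 of the range of the group.

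The difference between the lines in the positive-against-negative log2 fold change, Nep3 minus Ncol3, passed the interaction test for NV2.6826 at −6.12 (SE 0.79; edgeR adjusted p = 2.87e-05) and for NV2.18817 at −5.88 (SE 0.66; edgeR adjusted p = 1.77e-06). Both genes were chosen on their Ncol3 values, and the interaction contains the Ncol3 change, so its size is partly fixed by that choice. The naming rule also fixed that 4 of 4 Ncol3-positive libraries lay above every Ncol3-negative library. The Nep3 order did not enter that rule. Both genes were lower in 5 of 5 Nep3-positive libraries than in any Nep3-negative library.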

How the results depend on the processing

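The log2 fold changes of NV2.6826, NV2.18817, NV2.16299 and NV2.8024 in the Ncol3 line kept their direction and stayed past the threshold in all 29 alternatives, with values from 3.82 to 5.08, 2.63 to 3.87, −4.73 to −3.70 and −2.66 to −1.66. With library size only, mOrange2 was at 0.92 (edgeR adjusted p = 0.0478), the genes called numbered 10584, and the differences between lines of NV2.16299 and NV2.8024 passed the threshold at 0.98 and 1.41. That of NV2.8024 also passed with TMM factors without the 20 highest genes (0.75) and with a mean of at least 5 CPM (0.73). With only Ncol3 replicates 1 and 2, 2856 genes were called, 1040 of them beyond 2-fold, and mOrange2 missed the threshold at 1.66; fewer libraries entered. With only replicates 3 and 4, mOrange2 missed it at 1.65, and the differences between lines were −0.049 for NV2.16299 and 0.93 for NV2.8024, the latter past the threshold. The cause was not tested. With only the 8 Ncol3 libraries in the fit, 4591 genes were called, 1354 of them beyond 2-fold. NV2.6826 was then at 4.64 (SE 0.86, edgeR adjusted p = 0.00805) and NV2.18817 at 3.46 (SE 0.66, edgeR adjusted p = 0.00703). NV2.16299 was at −4.02 (edgeR adjusted p = 1.84e-07) and NV2.8024 at −1.98 (edgeR adjusted p = 2.38e-05). The reporter mOrange2 was at 1.64 (SE 0.24, edgeR adjusted p = 0.000179). Leaving out each library in turn gave 4445 to 5356 genes, 1268 to 1696 beyond 2-fold, −460 to −378 genes for the difference in genes holding 50% of the counts, and 0.54 to 0.88 for the difference between lines of NV2.8024. Same-numbered positive and negative libraries deviated together with correlations of 0.017 to 0.221, so the numbers were not taken as pairs; 2 of 4 positive libraries matched their own number best. A fit with a replicate block called 5499 genes. Permuted within same-numbered pairs, the difference of −415 genes had an exact p of 0.125, the smallest that 4 pairs allow. The shares of the Ncol3 lists called lower in the Nep3 line ran from 49.5% to 77.6% (8-fold higher) and from 32.6% to 88.5% (2-fold lower) over 28 alternatives chosen after seeing the data. Depth limits calls below 1 CPM.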
